A study of Mus musculus with 3 samples.

Results

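Laminins are the cross-shaped proteins around which basement membranes, the thin sheets of matrix under epithelia and around vessels, nerves and the brain surface, are built. Each laminin is a trimer of 1 alpha, 1 beta and 1 gamma chain, joined inside the cell before secretion, so a trimer can form only where all of its chains are made. Nidogens and perlecan then link the laminin network to collagen IV and to heparan sulfate. At the brain surface this sheet lies between the pia, the innermost leptomeningeal layer, and the endfeet of astrocytes.

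The genes described are 10 of the 46983 in the deposited table, taken by symbol: the alpha chains Lama1, Lama2, Lama4 and Lama5, the beta chains Lamb1 and Lamb2, the gamma chain Lamc1, the nidogens Nid1 and Nid2, and perlecan, Hspg2. A further 3 chain genes, Lama3, Lamb3 and Lamc3, were read from the same table, so that 10 laminin chains were analysed. RNA was sequenced in bulk from leptomeningeal cells that had been dissected from mouse brain, dissociated and sorted by flow cytometry. All 3 libraries belong to 1 group, called the pia enriched fraction of vehicle-treated mice in the labels, so that every comparison is between genes or between replicate libraries. The vehicle, and the strain, age, sex and number of mice, are not given in the labels used here, and the p-values measure only the spread between these libraries, which may be technical. Bulk levels cannot tell fewer cells of a type from less RNA per cell.

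Gene counts came to between 21002860 and 28704952 per library. A level is given as counts per 1000000 on scaled library sizes (CPM) when 1 gene is followed across libraries, and as CPM per kilobase of annotated exon when different genes are compared. The fraction carried the fibroblast markers Col1a1, Col1a2, Col3a1, Dcn, Lum, Pdgfra and Pdgfrb, whose summed level was 24179, 29643 and 25828 CPM in libraries 1, 2 and 3. Of 10 leptomeningeal fibroblast markers, 9 passed the filter on low counts, and the exception was Lama1. Markers of cells that also make laminins were present at lower sums, which ranged over libraries from 2470 to 4755 CPM for mural cells, from 2723 to 4618 CPM for Schwann cells and from 85.2 to 101 CPM for endothelium. All 8 markers of each of these 3 types had more than 3 counts in every library. The lists hold different genes, and Col1a2 alone averaged 11497 CPM, so the sums do not rank cell types by amount. Astrocyte markers summed to between 1174 and 2069 CPM, most of it Gja1 and Gjb6, while Aqp4 and Gfap were at most 4.43 and 9.37 CPM. Library 1 stood apart in its choroid plexus and macrophage markers, at 99.6 and 10.5 CPM against at least 3220 and 240 CPM in the other libraries.

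Among the alpha chains, Lama4 was the most abundant, Lama2 was next, Lama5 was lower, and Lama1 was close to absent. Lama4, whose chain lacks the amino-terminal domain with which other alpha chains polymerise, was at 109, 119 and 106 CPM in libraries 1, 2 and 3. Lama2, the chain missing in merosin-deficient muscular dystrophy, was at 80.4, 116 and 104 CPM. Both were of similar size in all libraries, and their ranges in CPM overlapped. Per kilobase of exon, Lama4 stood at 9.24 ± 0.56 (SD, n = 3) and Lama2 at 6.12 ± 1.11 CPM per kb. Within libraries the log2 ratio of Lama2 to Lama4 was -0.87, -0.47 and -0.48, so Lama4 was the higher in 3 of 3 libraries, by 1.52-fold on average. That size rests on the gene models: both genes have long alternative exons, with 12068 bp of exon against a longest transcript of 6046 bp for Lama4, and 16338 against 9614 bp for Lama2. Without division by length the log2 ratio was -0.17 ± 0.23 (SD, n = 3), a difference smaller than its spread.

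Lama5, the alpha chain of most mature epithelial and vascular basement membranes, was at 21.8, 20.2 and 38.6 CPM. Library 3 held the high value, and libraries 1 and 2 were alike. Per kilobase, Lama5 stood at 2.36 ± 0.90 CPM per kb (SD, n = 3), which was 4.09-fold under Lama4 and 2.68-fold under Lama2, both in 3 of 3 libraries. With coding length in place of exon length these gaps widened, from log2 ratios of 2.03 ± 0.58 and 1.42 ± 0.55 to 3.15 ± 0.58 and 2.20 ± 0.55 (SD, n = 3). Mural and Schwann cell markers were also highest in library 3, at 4755 and 4618 CPM against at most 2813 and 3110 CPM in the others, as were choroid plexus and macrophage markers, whereas endothelial markers were at 99.9, 85.2 and 101 CPM. Their part in the Lama5 level was not tested.

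Lama1, the chain of the first embryonic laminin and a known constituent of the pial basement membrane, had 0, 18 and 6 counts in libraries 1, 2 and 3. The exact 95% Poisson intervals, which cover counting error only, run from 10.7 to 28.4 counts in library 2 and from 2.20 to 13.1 in library 3. For the count of 0 in library 1 the same interval reaches 3.69 counts. The fixed limit of 3 counts used here corresponds to 0.152 CPM in that library. The other libraries gave 0.605 and 0.231 CPM. Per kilobase, Lama4 was 576-fold above that limit of 3 counts in library 1. In libraries 2 and 3 it was 158-fold and 369-fold above the measured Lama1 level. The gene did not pass the filter, so it was not tested for variation between libraries. Its mean of 0.279 CPM over all libraries was 0.116 without library 2 and 0.418 without library 1. The other 9 leptomeningeal fibroblast markers were all higher, over a wide range. Slc47a1, a cation exporter, was at between 844 and 1239 CPM and Aldh1a2, a retinoic acid synthesis enzyme, at between 63.5 and 67.1 CPM, whereas the transporters Slc13a3, Slc6a13 and Slc22a6 were at between 3.78 and 13.1, between 3.03 and 7.70 and between 2.08 and 3.36 CPM.

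The remaining alpha chain, Lama3, found mainly in epithelia, was at 7.17, 2.99 and 3.70 CPM. Lama4 thus took 51.0% ± 4.0 of the summed alpha level per kilobase, Lama2 33.5% ± 3.7, Lama5 12.9% ± 4.5 and Lama3 2.44% ± 1.40 (SD, n = 3 for each). Lama1 took 0.151% ± 0.165, a mean below its SD, with 0 in library 1, 0.327% in library 2 and 0.126% in library 3.

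**Figure D1:**
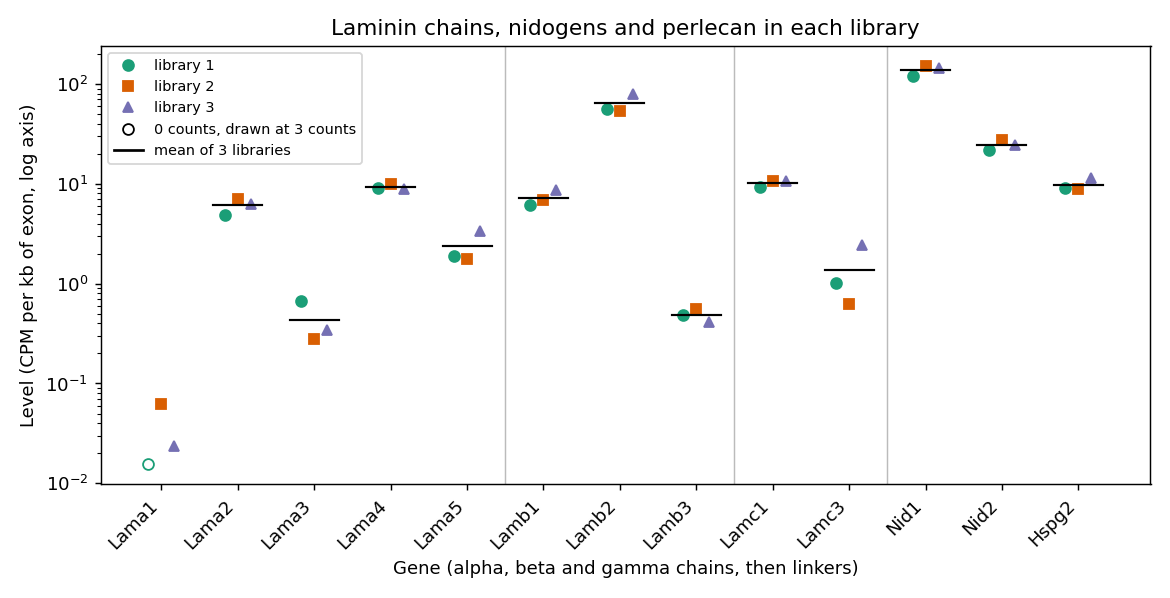
Level of the 10 laminin chain genes, both nidogens and perlecan in each library, as CPM per kb of exon on a log axis; points are libraries, bars are means over 3 libraries, and the open point is a count of 0 drawn at the level of 3 counts. Nid1 and Lamb2 lie highest, and Lama1 lies below every other gene shown.

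The beta chains were unequal. Lamb2, the chain of neuromuscular synapses and of the kidney filter, was at 345, 329 and 488 CPM, and Lamb1, the more widely expressed beta chain, was at 60.8, 68.7 and 86.4 CPM. Both were highest in library 3, and the lowest Lamb2 value was well above the highest Lamb1 value. Per kilobase, Lamb2 stood at 63.7 ± 14.4 and Lamb1 at 7.26 ± 1.32 CPM per kb (SD, n = 3). The log2 ratio of Lamb1 to Lamb2 was -3.21, -2.97 and -3.20 in the 3 libraries, an 8.73-fold excess of Lamb2 that varied little. With coding length in place of exon length the log2 ratio was -2.42. Lamb3, found mainly in epithelia, was at 3.18, 3.66 and 2.74 CPM. Lamb2 held 89.1% ± 1.0 of the summed beta level per kilobase, Lamb1 10.2% ± 0.88 and Lamb3 0.707% ± 0.222 (SD, n = 3).

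Because the beta pair showed the widest gap of the contrasts between genes per kilobase of exon, the sequences upstream of both genes are shown. They are the 250 bases before the RefSeq start on GRCm38.p6, written 5′ to 3′ on the plus strand, on which both genes lie; capitals mark the GC box motif GGGCGG or its reverse complement CCGCCC.
Lamb1, chr12:31265043-31265292: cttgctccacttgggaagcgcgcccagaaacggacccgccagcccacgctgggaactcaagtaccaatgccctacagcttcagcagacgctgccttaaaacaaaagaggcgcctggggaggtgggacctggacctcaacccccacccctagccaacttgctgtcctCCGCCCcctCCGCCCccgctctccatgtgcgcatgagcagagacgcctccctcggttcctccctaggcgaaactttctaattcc
Lamb2, chr9:108479612-108479861: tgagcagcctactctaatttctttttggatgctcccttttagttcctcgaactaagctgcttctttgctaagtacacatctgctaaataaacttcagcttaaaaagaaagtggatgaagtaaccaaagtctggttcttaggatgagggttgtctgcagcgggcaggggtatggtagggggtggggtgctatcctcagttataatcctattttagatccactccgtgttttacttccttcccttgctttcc
The Lamb1 window held 2 GC boxes and 14 CG dinucleotides, and the Lamb2 window 0 and 3, so the gene with the lower level had the window richer in CG. The RefSeq table gave a start for 6 of the 10 genes, and 4 of these 6 windows held at least 1 GC box (Lama5 4, Lamb1 2, Nid1 1, Hspg2 5), against 32.7% of 32817 windows of the same length. The Lama2 window held 0, and the letters TATAAA, on either strand, were in 0 of the 6 windows and in 12.4% of all. GENCODE places the starts of both beta genes inside these windows, so the choice of start bears on these counts, which are descriptions of letters and not of binding.

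Lamc1 was the more abundant of the 2 gamma chains analysed. This gene, whose chain is shared by most laminins and carries the nidogen binding site, was at 76.6, 88.5 and 87.3 CPM, or 10.2 ± 0.79 CPM per kb (SD, n = 3). Its highest value was 1.15 times its lowest, and of the 9 genes past the filter only Lama4 spread less. Lamc3, a gamma chain of the pial basement membrane of the developing cortex, was at 6.16, 3.80 and 14.96 CPM, highest in library 3. Of the summed level of these 2 gamma chains per kilobase, Lamc1 held 88.6% ± 6.8 and Lamc3 11.4% ± 6.8 (SD, n = 3). In library 3 the Lamc3 share reached 18.9%, against 9.85% and 5.51% in libraries 1 and 2; edgeR's goodness-of-fit test gave an adjusted p of 0.766 for Lamc3 between libraries.

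**Figure D2:**
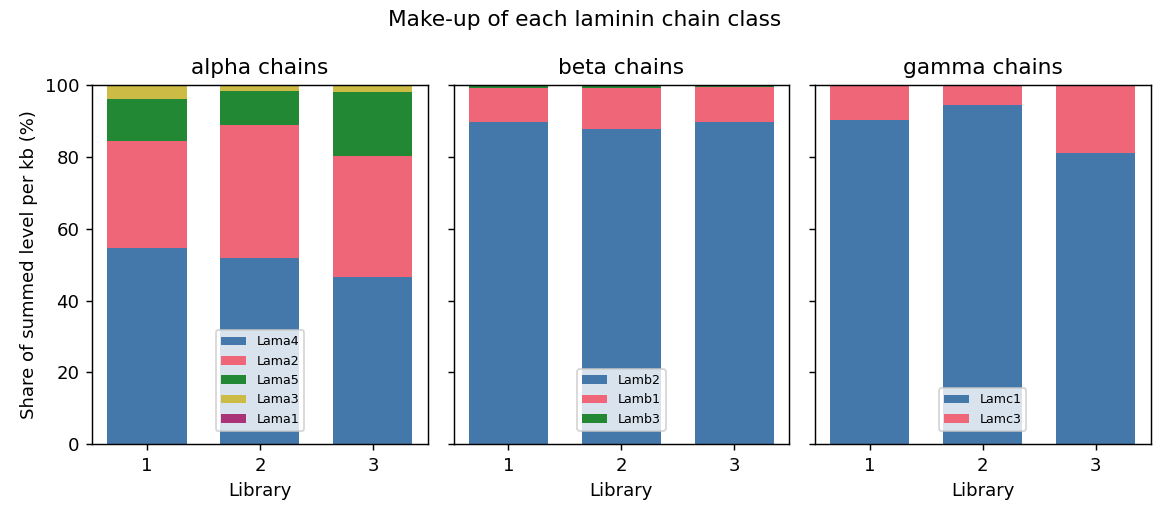
Share of each chain gene in the summed level per kb of the chains analysed in its class, in percent, for libraries 1, 2 and 3 (1 bar each). Lamb2 and Lamc1 fill most of their classes in every library, while the alpha class is divided mainly between Lama4 and Lama2.

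Summed over the chains analysed in each class, beta chains exceeded alpha chains, and alpha chains exceeded gamma chains. The beta sum was 71.4 ± 15.5, the alpha sum 18.2 ± 1.4 and the gamma sum 11.5 ± 1.4 CPM per kb (SD, n = 3). The beta sum was 6.13-fold and the alpha sum 1.58-fold the gamma sum, each in 3 of 3 libraries and by more than the spread between them. The log2 ratio of the alpha to the gamma sum, 0.66 ± 0.11 (SD, n = 3), was 1.35 ± 0.14 per kilobase of the longest transcript. A total of 7 contrasts between chains, nidogens and class sums was tested by an exact permutation test that flips signs over libraries, two-sided. In this exact permutation test each gave p = 0.25, and 0.25 after Benjamini-Hochberg adjustment, the smallest value that 3 libraries allow, so size and direction in 3 of 3 libraries are the evidence here.

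Which trimers could be assembled was read from the chain RNAs present, and chain protein was not measured. The chains are joined within a cell, whereas bulk counts do not show which chains came from the same cell, and the fraction also held mural, Schwann and endothelial markers. A trimer is therefore called possible here only in the sense that RNA of all of its chains was present in the fraction. It was counted when each of its chains had more than 3 counts in every library. Its ceiling was the RNA level of its scarcest chain, taken as if no other trimer used that chain, and is not a limit on protein. Of the 10 chains 9 passed this limit, all but Lama1. Of 13 commonly listed trimers of these chains, 11 had all chains present in this sense, and α1β1γ1 and α1β2γ1 were not. With a limit of 1 CPM in every library the count was also 11. Library 1 alone kept the α1 trimers out at the limit of 3 counts: without it 13 were possible, with a mean α1 ceiling over all libraries of 0.029 CPM per kb.

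The highest ceiling belonged to α4β2γ1, at 9.02, 9.88 and 8.82 CPM per kb in libraries 1, 2 and 3, where Lama4 was the scarcest chain in each. The β1 counterpart α4β1γ1 followed at 7.26 ± 1.32 CPM per kb (SD, n = 3), limited by Lamb1. The α2 trimers α2β2γ1 and α2β1γ1 had ceilings of 6.12 ± 1.11 and 6.06 ± 1.03 CPM per kb, limited by Lama2 except for α2β1γ1 in library 2, where Lamb1 was scarcer. The ceilings of α4β1γ1 and of both α2 trimers lay within 1 SD of a neighbour in this order. Trimers of α5 with γ1 came to 2.36 ± 0.90 CPM per kb, limited by Lama5. The 3 listed trimers with γ3, α5β2γ3 among them, came to 1.36 ± 0.97 CPM per kb, all limited by Lamc3. The value for γ3 rested on library 3, with 1.01, 0.623 and 2.46 CPM per kb in libraries 1, 2 and 3, and a mean of 0.818 without library 3. The α3 trimers were at most 0.668 CPM per kb in any library.

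These ceilings moved with the gene length used. Per kilobase of coding sequence α4β2γ1 again had the highest ceiling, 17.1 ± 1.3 CPM per kb (SD, n = 3), but Lamc1 was then its scarcest chain. Per kilobase of the longest transcript α4β2γ1 and α4β1γ1 shared the value 11.04 ± 0.86 CPM per kb, both limited by Lamc1, and the α2 trimers stood at 10.3 ± 1.7. With all 3 lengths the α4 and α2 trimers with γ1 came first, then the α5 trimers with γ1, then those with γ3.

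**Figure D3:**
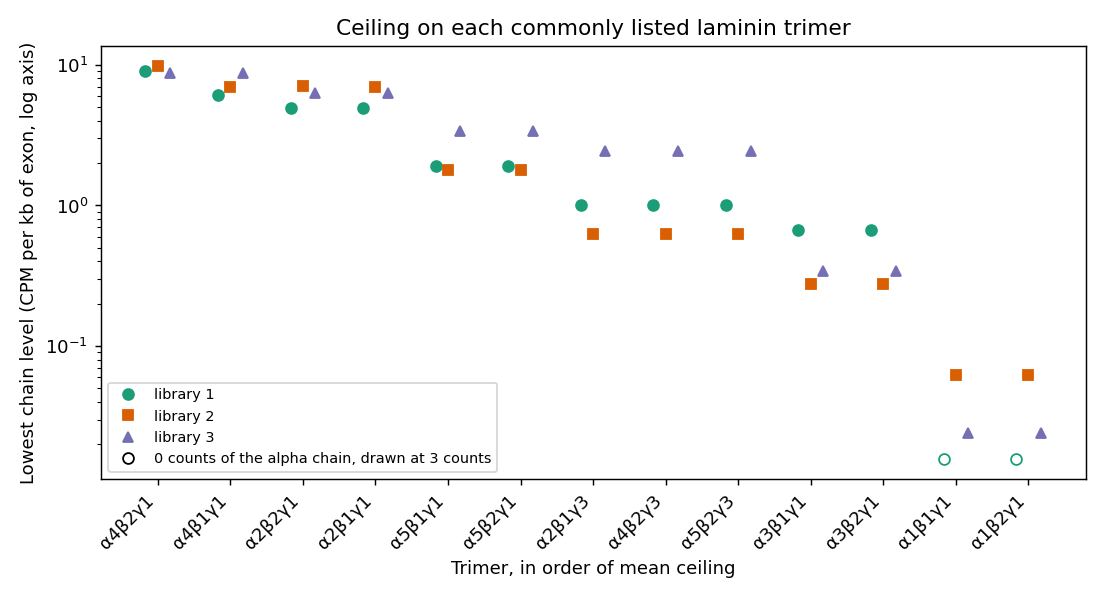
Ceiling on each of 13 commonly listed trimers, as the RNA level of its scarcest chain in CPM per kb of exon on a log axis, for each library. Open points mark 0 counts of Lama1 drawn at 3 counts. The 4 trimers of α4 or α2 with γ1 lie between 4.92 and 9.88, and the α1 trimers lie lowest.

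Per kilobase of exon, both nidogens stood above every chain but Lamb2, whereas perlecan was near Lamc1 and Lama4. Per kilobase of coding sequence or of the longest transcript, perlecan stood below both Lamc1 and Lama4. Nid1, the nidogen that joins the laminin gamma-1 chain to collagen IV, was at 833, 1054 and 1013 CPM, and Nid2, its paralog, at 112, 143 and 126 CPM. Both were lowest in library 1 and highest in library 2. Per kilobase, Nid1 stood at 139 ± 16.9 and Nid2 at 24.6 ± 3.0 CPM per kb (SD, n = 3). Their log2 ratio was 2.47, 2.46 and 2.58 in the 3 libraries, a 5.67-fold excess of Nid1, and the mean log2 ratio was 3.13 per kilobase of coding sequence. Exons of Nid2 share 437 bases, 8.45% of its exon length, with Rtraf on the opposite strand, and the strand setting of the counting is not given in the sources used here. Hspg2, which encodes perlecan, the heparan sulfate proteoglycan of basement membranes, was at 128, 126 and 163 CPM, or 9.72 ± 1.44 CPM per kb. Perlecan was highest in library 3, and the other libraries were alike.

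In order of level per kilobase the genes ran Nid1, Lamb2, Nid2, Lamc1, Hspg2, Lama4, Lamb1, Lama2, Lama5 and Lama1. Of the 8 neighbouring pairs above Lama1, 5 differed in 1 direction in every library by more than the SD of their log2 ratio. The pairs Lamc1 and Hspg2, Hspg2 and Lama4, and Lamb1 and Lama2 did not, and their order is not resolved. Other lengths changed the middle of this order. Per kilobase of coding sequence Lama4 (20.5) stood above Lamc1 (17.1), and Lamb1 (13.1) and Lama2 (10.7) above Hspg2 (10.6 CPM per kb). Per kilobase of the longest transcript Lama4 (18.4) and Lamb1 (12.4) stood above Lamc1 (11.04), and Lama2 (10.4) above Hspg2 (9.80 CPM per kb). Nid1, Lamb2 and Nid2 came first, and Lama5 and Lama1 last, with all 3 lengths. Per kilobase of exon, Nid1 stood above 97.6% and Lamb2 above 94.5% of the genes past the filter that had an annotated exon length. Lamc1 and Lama4 stood above 72.5% and 70.7% of them, and Lama5 above 39.3%.

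The spread of these genes between libraries was then tested. Of the 9 genes that passed the filter, 0 were called variable by edgeR's goodness-of-fit test at an adjusted p of 0.05, against 0.437% of the 14409 genes tested (63 genes), so that a count of 0 is near the background. At an unadjusted p under 0.05 the count was also 0, against 7.04% of all genes tested, and DESeq2's fitted dispersions gave 0 as well. The smallest unadjusted p from edgeR's test was 0.329, for Lama5. Without library 1 it was 0.0397 for Lama5, with an adjusted p of 0.840. The range over libraries on the log2(CPM + 1) scale, which understates the change of low genes, ran from 0.16 for Lama4 to 0.90 for Lama5, with a median of 0.37 against 0.67 over all genes tested. That background was not matched to these genes for level, so the medians do not show that these genes were unusually steady. In simulated counts the test recovered 120 of 200 genes changed 8-fold in 1 library, but 18 of 200 changed 4-fold, so changes of this smaller size would mostly be missed.

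Library 1 held the lowest value of 5 of the 9 genes (Lama2, Lamb1, Lamc1, Nid1 and Nid2), library 2 that of 3 and library 3 that of 1. Library 3 held the highest value of 4 genes, Lama5, Lamb1, Lamb2 and Hspg2, and library 2 that of the other 5. Of the 10 marker lists, 7 had their highest sum in library 3 as well. These were mural and Schwann cells, with the sums given above, choroid plexus (99.6, 3220 and 4910 CPM), macrophages and microglia (10.5, 240 and 679 CPM) and the arachnoid barrier (269, 358 and 422 CPM), and by small margins endothelium (99.9, 85.2 and 101 CPM) and leptomeningeal fibroblasts (1668, 1702 and 1742 CPM). Most of the arachnoid barrier sum was Abcg2, at 176, 279 and 339 CPM. Krt18 and Cdh1 were highest in library 3 too, but Cldn11 and Krt19 in library 1 and Dsp in library 2. Endothelial markers were split: Cdh5 and Tek were highest in library 2, Egfl7 and Kdr in library 1, and the others in library 3. No leptomeningeal fibroblast marker was itself highest in library 3: Slc47a1 peaked in library 2 (1239 CPM) and Ptgds in library 1 (647 CPM). The part of these cell types in the levels of Lama5, Lamb1, Lamb2 and Hspg2 was not tested. After the per-library trends with GC content and exon length were removed, the test again called 0 of the 9 genes.

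**Figure D4:**
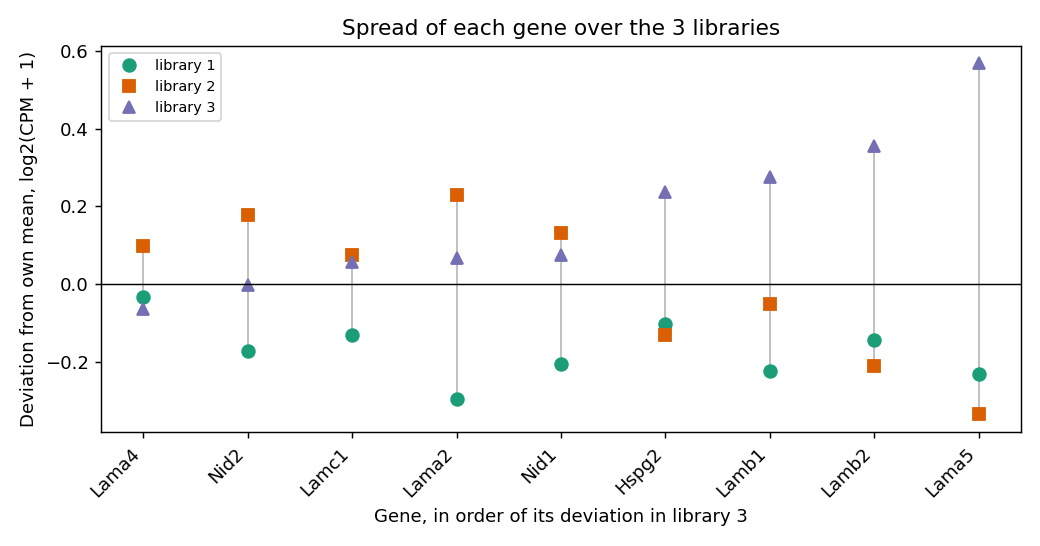
Deviation of each of the 9 genes past the filter from its own mean over 3 libraries, on the log2(CPM + 1) scale; points are libraries and grey lines join the lowest and highest. Lama4 and Lamc1 spread least, and Lama5, Lamb2, Lamb1 and Hspg2 are highest in library 3.

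Genes of the surrounding basement membrane and of laminin binding were read from fixed lists. All 50 genes on 5 lists passed the filter, and 0 were called variable between libraries by edgeR's test at an adjusted p of 0.05, against 0.437% of all genes tested. At an unadjusted p under 0.05 there were 2, Frem1 and Itga6, against 7.04% of all genes tested. Among basement membrane collagens, Col4a1 and Col4a2, which form the ubiquitous collagen IV trimer that nidogens and perlecan attach to laminin, stood at 50.1 ± 15.8 and 28.2 ± 9.9 CPM per kb (SD, n = 3). Col18a1, the precursor of endostatin, was at 24.6 ± 8.1 and Col4a5 at 5.62 ± 0.69 CPM per kb. The sum of the 8 collagens was 730, 596 and 1034 CPM, highest in library 3, as were Lamb2 and Hspg2.

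Of other basement membrane proteins, Sparc, a collagen-binding calcium protein, was far the highest at 2725 ± 401 CPM per kb. Fbln1, a fibulin that binds laminin and nidogen, followed at 147 ± 61.9, Smoc1 at 108 ± 14.6, and Egflam, which encodes the dystroglycan ligand pikachurin, at 29.6 ± 3.9 CPM per kb (SD, n = 3). All 15 genes of that list passed the filter.

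Receptors for laminin were present in the integrin, dystroglycan and syndecan families. All 11 listed receptors passed the filter with at least 1 CPM in every library. The leading 4 were the syndecan Sdc4 at 83.2 ± 8.6, Bcam, which binds the alpha-5 chain, at 79.8 ± 31.5, the shared integrin subunit Itgb1 at 70.9 ± 22.2, and dystroglycan, Dag1, at 33.6 ± 2.0 CPM per kb (SD, n = 3). Itga6 and Itga7, alpha subunits of laminin-binding integrins, were both highest in library 3, at 21.2 and 124 CPM. Dystroglycan binds alpha-2 laminins through a sugar chain built by a set of glycosyltransferases and a kinase, and all 13 of these enzymes on the list passed the filter. The highest were B4gat1, which primes that chain, at 42.7 ± 2.7, Pomgnt2 at 17.8 ± 4.1, the kinase Pomk at 16.5 ± 2.1 and Pomt1 at 6.95 ± 1.72 CPM per kb. Large, which extends the chain, had between 20.3 and 27.8 CPM.

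**Figure D5:**
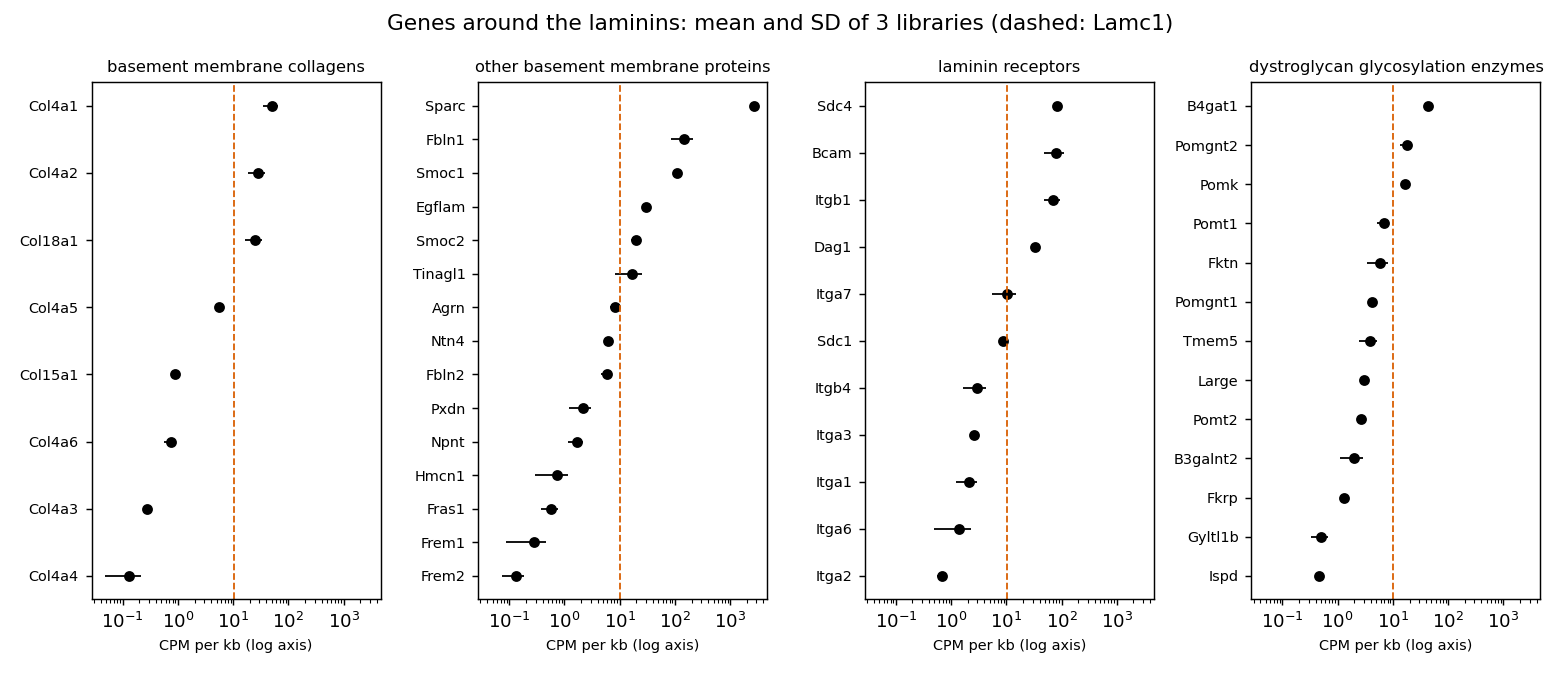
Mean level per kb of exon (points) with SD over 3 libraries (lines) on a log axis for basement membrane collagens, other basement membrane proteins, laminin receptors and dystroglycan glycosylation enzymes; the dashed line is Lamc1 at 10.2 CPM per kb. Sparc lies far to the right, and Col4a1, Col4a2 and the leading receptors lie right of Lamc1.

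The genes whose pattern was most like the mean of the 9 were found by Euclidean distance over 3 libraries, among 14400 genes, as a description. The mean pattern was -0.17, -0.002 and 0.17 on the log2 scale in libraries 1, 2 and 3. The nearest were Mfsd4, Tnpo3, a nuclear import receptor, Dgkd, a diacylglycerol kinase, Armt1 and Ccdc13, with distances from 0.00704 to 0.0131. With 3 points a nearly flat pattern has many close matches, and all libraries share their preparation and depth differences.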

How the data were processed

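RNA from 3 samples of 1 group was amplified as cDNA with a low-input template-switching kit and sequenced as paired 50 bp reads, per the labels' protocols. The deposited table holds raw counts per gene; the submitters' processing notes name HTSeq 0.5.3, DESeq2 1.22.1 and mm10, while aligner, annotation release and strand setting are not given in the sources used here. The 5 rows of reads given to no gene, 39.1% to 45.6% of each library's total, were left out.

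TMM scaling was done with edgeR 4.0.16 (R 4.3.3); filterByExpr at a minimum count of 10 left 14409 genes. With 1 group the quasi-likelihood test has no contrast, so variation between libraries was tested by goodness of fit in edgeR, with trended dispersions from an intercept-only model, with Benjamini-Hochberg adjustment over all genes tested. An alternative used DESeq2 1.42.0. Gene lengths and GC content came from GENCODE M21 on GRCm38 (mm10), which held 98.9% of the gene identifiers; exon length is the union of all annotated exons. A count of 0 was set to 0.5 counts where a log ratio needed it. Floors and intervals cover counting error only, since PCR copies are not separate molecules. Promoter sequences are RefSeq's. The script was tested on simulated counts.

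The genes, lists and tests were chosen with earlier results of these data known. Named genes are the 10 members, the other laminin chains (1 gene is not reported here and enters no sum), the 4 highest genes per kilobase and any called variable on each other list, and the 5 nearest profiles; Itga6, Itga7, Frem1, Large and the marker genes were named beyond it after their values were seen. Alternatives were other scalings, filters, dispersions and gene lengths, correction for trends with GC content and length, and each library left out.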

Additional observations from a re-analysis of the deposited data

How the results depend on the processing

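The 7 contrasts kept their direction in all 21 alternatives with another gene length; leaving out a library could not have turned them, since each had 1 direction in 3 of 3 libraries. All 10 alternatives for the count of variable genes gave 0. With other scalings, chosen after seeing the data, each of the 10 genes' mean CPM moved by less than 1 SD. The shares depended on gene length. Per kilobase of coding sequence Lama4 held 60.2%, Lama5 7.09% and Lamb2 83.2%. Per kilobase of the longest transcript these were 58.4%, 7.46% and 83.9%. Undivided by length, Lama2 held 40.9%, Lama4 46.0% and Lamb2 83.6%. The ceiling of α4β2γ1 was 17.1 per coding kilobase and 11.04 CPM per kb of the longest transcript. These shifts follow from the lengths themselves. Of the 13 listed trimers 11 were possible, and 11 to 13 under alternatives. The count of variable genes over the whole table was 63, and ranged from 0 with tagwise dispersions and 16 with DESeq2 to 181 with a filter on the mean count. No comparison between groups was possible because all libraries share 1 group, and the 7 contrasts were paired within libraries. At this depth Lama1, with at most 18 counts, is known only within wide counting error.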
